A study of Mus musculus with 7 samples.

Results

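PD-1, TIM-3 and LAG-3 are inhibitory receptors of activated T cells, and PD-L1 and PD-L2 are the ligands of PD-1. They were described in spleen cells of transplanted mice through every probe set whose platform symbol was Pdcd1 (PD-1), Havcr2 (TIM-3), Lag3 (LAG-3), Cd274 (PD-L1) or Pdcd1lg2 (PD-L2). Each gene had 1 probe set, which gives 5 of 22626 probe sets and 5 of the 12393 genes that have a probe set with a single symbol. The probe sets are 1449835_at for Pdcd1, 1451584_at for Havcr2, 1449911_at for Lag3, 1419714_at for Cd274 and 1450290_at for Pdcd1lg2. The study looked at ICOS and its ligand ICOSL, a costimulatory pair of T cells and antigen-presenting cells, in acute graft-versus-host disease. Female C57BL/6 (B6) recipients, 9 to 12 weeks old, were irradiated with 10.0 Gray and given splenocytes by vein 4 to 6 h later, and all spleens were taken on day 4. In 3 allogeneic groups the donors were C3H/HeN mice, and the recipients were given an anti-ICOSL antibody from day 0 (2 arrays), the same antibody from day 3 (2 arrays) or control rat IgG, called isotype below (2 arrays). Antibody was given at 500 µg first and at 200 µg every other day after that, and the labels do not state on which day the isotype injections began. By this schedule the day 3 group had had only its first dose when spleens were taken on day 4. Start day and total dose therefore differ together. The syngeneic recipients had B6 donors, no antibody is listed for them, and they are represented by 1 array. The allogeneic RNA was pooled over mice ahead of hybridisation, so the p-values below measure only the spread between arrays, which may be technical. Spleen RNA holds transcripts of grafted cells and of the recipient's remaining cells together.

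PD-1, TIM-3 and LAG-3 appear on T cells after antigen stimulation and dampen signals from the T cell receptor. PD-1 binds PD-L1 and PD-L2 on antigen-presenting and tissue cells and recruits the phosphatase SHP-2. TIM-3 binds galectin 9 and other ligands, and LAG-3 binds MHC class II. PD-L1 is induced by interferon gamma in many cell types, whereas PD-L2 is found mainly on dendritic cells and macrophages. In graft-versus-host disease these receptors are known as brakes on alloreactive T cells.

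RefSeq promoter sequences of build GRCm38.p6, 250 bases before to 50 bases after the start, were held for 4 of the 5 genes (Pdcd1, Havcr2, Cd274 and Pdcd1lg2). The promoters of 2 receptors that rose together, Pdcd1 and Havcr2, are shown with that of Cd274, a ligand that was not called. The windows are chr1:94052504-94052803 on the minus strand for Pdcd1, chr11:46454681-46454980 on the plus strand for Havcr2 and chr19:29367188-29367487 on the plus strand for Cd274. The Cd274 window surrounds a start that lies inside the annotated span of the gene, not at its first base. Capitals mark the letters GGAAA, which read TTTCC where the match is on the other strand, the core of sites for NFAT, a calcium-dependent factor that acts downstream of the T cell receptor.
Pdcd1 promoter: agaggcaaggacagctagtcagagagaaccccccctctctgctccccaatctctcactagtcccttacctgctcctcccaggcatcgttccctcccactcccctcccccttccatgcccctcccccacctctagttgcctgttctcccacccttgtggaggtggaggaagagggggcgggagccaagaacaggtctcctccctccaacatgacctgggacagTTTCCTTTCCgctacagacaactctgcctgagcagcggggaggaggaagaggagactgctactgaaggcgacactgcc
Havcr2 promoter: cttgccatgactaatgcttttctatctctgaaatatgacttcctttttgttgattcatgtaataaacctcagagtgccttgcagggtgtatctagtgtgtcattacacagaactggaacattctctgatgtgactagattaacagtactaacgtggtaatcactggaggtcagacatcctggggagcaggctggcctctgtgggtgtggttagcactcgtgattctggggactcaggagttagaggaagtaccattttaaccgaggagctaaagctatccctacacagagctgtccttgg
Cd274 promoter: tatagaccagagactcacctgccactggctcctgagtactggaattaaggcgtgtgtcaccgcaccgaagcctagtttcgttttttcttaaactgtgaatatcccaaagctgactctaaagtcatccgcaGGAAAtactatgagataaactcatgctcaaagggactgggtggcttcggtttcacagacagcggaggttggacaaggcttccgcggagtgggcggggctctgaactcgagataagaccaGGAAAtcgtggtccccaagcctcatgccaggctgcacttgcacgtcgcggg
Both strands were searched for GGAAA, for the AP-1 site TGACTCA, for the gamma-activated site, read as TTCNNNGAA, and for the core of the interferon-stimulated response element. The Pdcd1 window held GGAAA side by side from −28 to −24 and from −23 to −19 on the strand opposite to the gene. The Cd274 window held it from −120 to −116 and from −1 to 4, and that of Pdcd1lg2 from −22 to −18. The Havcr2 window held no match to the 4 motifs, the other 3 windows held none to the AP-1, gamma-activated and interferon-stimulated motifs, and no match overlapped one of another motif. GGAAA occurs in 61.3% of all 32851 promoters of the same length, TGACTCA in 5.2%, the gamma-activated site in 8.3% and the interferon-stimulated core in 3.44%, so a GGAAA match is common. The G and C content was 60.7% for Pdcd1, 45.3% for Havcr2, 52.7% for Cd274 and 46.0% for Pdcd1lg2, against a median of 52.7% over all promoters. Cd274 and Pdcd1lg2 are neighbours on chromosome 19, with 1 long non-coding RNA gene, Gm36043, starting between them.

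The deposited values are MAS5 signals, an Affymetrix summary of the probes of a probe set in linear units, scaled to trimmed means of 500.18 to 500.19. Array medians ran from 145.4 to 174.5. Gapdh 3′/5′ control ratios, which reflect how intact the RNA is, were 0.794 to 0.821 on day 0 arrays, 0.838 to 0.865 on day 3 arrays, 0.767 to 0.784 on isotype arrays and 0.957 on the syngeneic array. Log2 changes below are differences of log2(signal + 50) from 1 limma fit over all 7 arrays, adjusted by Benjamini and Hochberg over 15494 probe sets that passed a filter on dim signal, and a probe set was called at an adjusted p under 0.05. All 5 genes passed the filter. Pdcd1 and Havcr2 passed it only through the allogeneic groups, since their syngeneic signals were below the filter's level of 95.1. The signals of different probe sets are not comparable with each other, so levels are set side by side only within a gene.

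**Figure D1:**
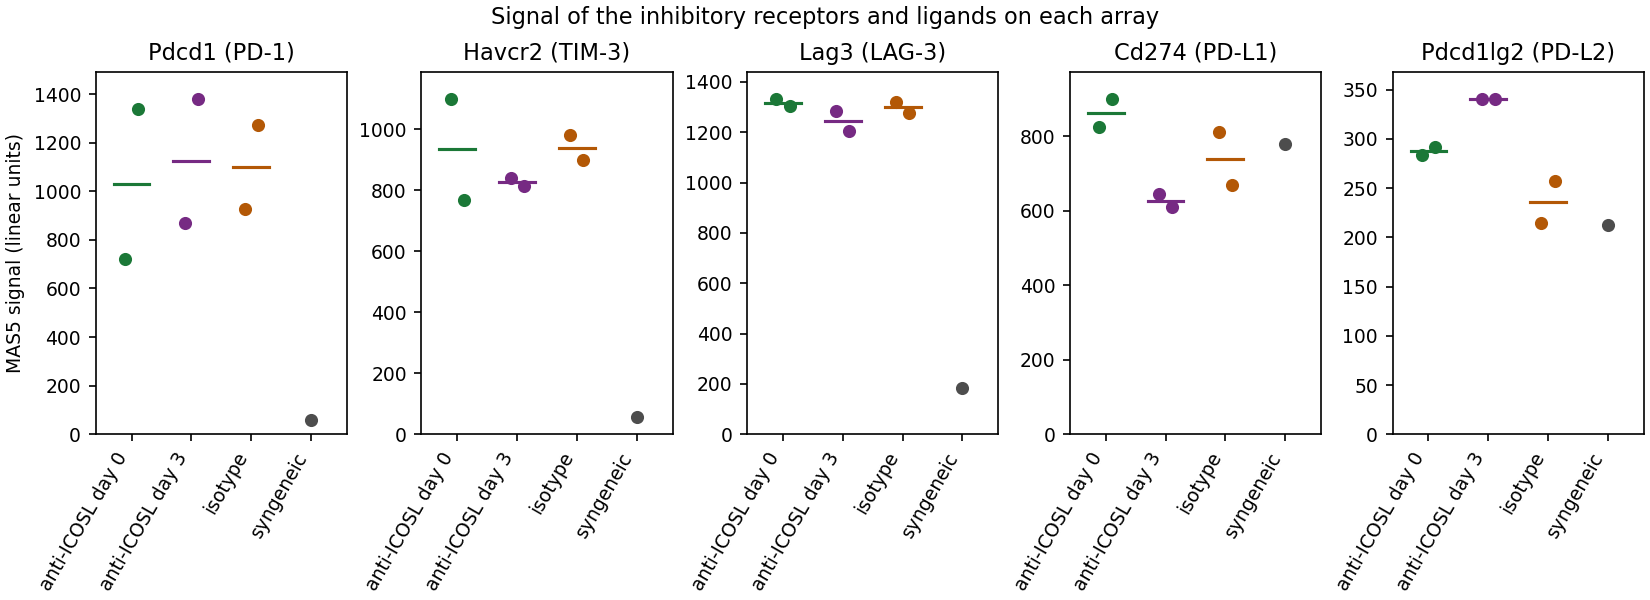
MAS5 signal (linear axis from 0) of Pdcd1, Havcr2, Lag3, Cd274 and Pdcd1lg2 on each array, with groups along the horizontal axis, 1 point per array and a bar at the mean of 2 arrays. The 3 receptors stood far above the syngeneic array on all 6 allogeneic arrays, while the syngeneic signal of Cd274 (779.9) lay within the allogeneic range of 611 to 900.3.

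The isotype arrays set against the syngeneic array show how these genes stand in an allogeneic recipient's spleen on day 4. All 3 receptors rose and neither PD-1 ligand was called. In this bulk RNA, more cells of a type and more transcript per cell cannot be told apart. Nor can the effect of the donors' strain be told apart from that of the allogeneic response.

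Pdcd1 had signals of 929 and 1272 on the isotype arrays, against 58.9 on the syngeneic array. Both isotype arrays were far above the syngeneic one, by more than the gap between them. Its log2 change was 3.39 ± 0.44 (SE; 95% interval 2.33 to 4.44; limma adjusted p = 0.0105), a fitted fold of 10.4. Of the 5 genes Pdcd1 was the one that lost its call when an allogeneic array was left out: without the second isotype array its log2 change was 3.17. The calls of Pdcd1, Havcr2 and Lag3 all rest on the 1 syngeneic array, which no alternative setting left out.

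Havcr2 had signals of 980.2 and 898 on the isotype arrays, against 57.1 on the syngeneic array, with no overlap and close agreement between the isotype arrays. Its log2 change was 3.21 ± 0.25 (95% interval 2.59 to 3.82; limma adjusted p = 0.00267). The fitted fold was 9.23. The call held in all 13 alternative settings, with log2 changes of 2.72 to 3.71.

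Lag3 had signals of 1320 and 1277 on the isotype arrays, against 183 on the syngeneic array. Its fitted log2 change was 2.53 ± 0.19 (95% interval 2.08 to 2.99; limma adjusted p = 0.00243), and the ratio of mean signals was 7.10. Unlike Pdcd1 and Havcr2, Lag3 passed the dim-signal filter in the syngeneic spleen as well. Its call also held in all 13 alternative settings (2.31 to 2.72).

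Cd274 had signals of 812 and 669 on the isotype arrays, which lay on both sides of the syngeneic 779.9. Its log2 change was −0.08 (95% interval −0.59 to 0.44; limma adjusted p = 0.869), which leaves room for fitted folds from 0.67 to 1.35. Pdcd1lg2 had signals of 215 and 258 on the isotype arrays, against 212 on the syngeneic array. Both isotype arrays were just above it, with a log2 change of 0.12 (95% interval −0.36 to 0.60; limma adjusted p = 0.773).

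Limma called 3 of the 5 genes higher and 0 lower, beside 2.5% of all tested probe sets called higher and 4.14% called lower (6.63% in all, 1028 probe sets). Nothing is read from this tally, because Pdcd1 and Havcr2 entered the test only through the allogeneic groups in which they were high. The background share was unsteady too, with 406 calls without the second isotype array, 490 without the first, 665 to 679 without any 1 of the day 0 or day 3 arrays and 542 without the filter. Isotype arrays lay above the syngeneic array without overlap for Pdcd1, Havcr2, Lag3 and Pdcd1lg2, as did 38% of all tested probe sets, while 38.8% lay below and 76.8% did not overlap in either direction. On the syngeneic array 31.6% of probe sets had a lower signal than Pdcd1, and without detection calls its signal and that of Havcr2 are not shown to be above background there. Their folds therefore move with the added constant: the log2 changes were 3.88 and 3.71 with 16 units in place of 50, and 2.90 and 2.72 with 100.

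**Figure D2:**
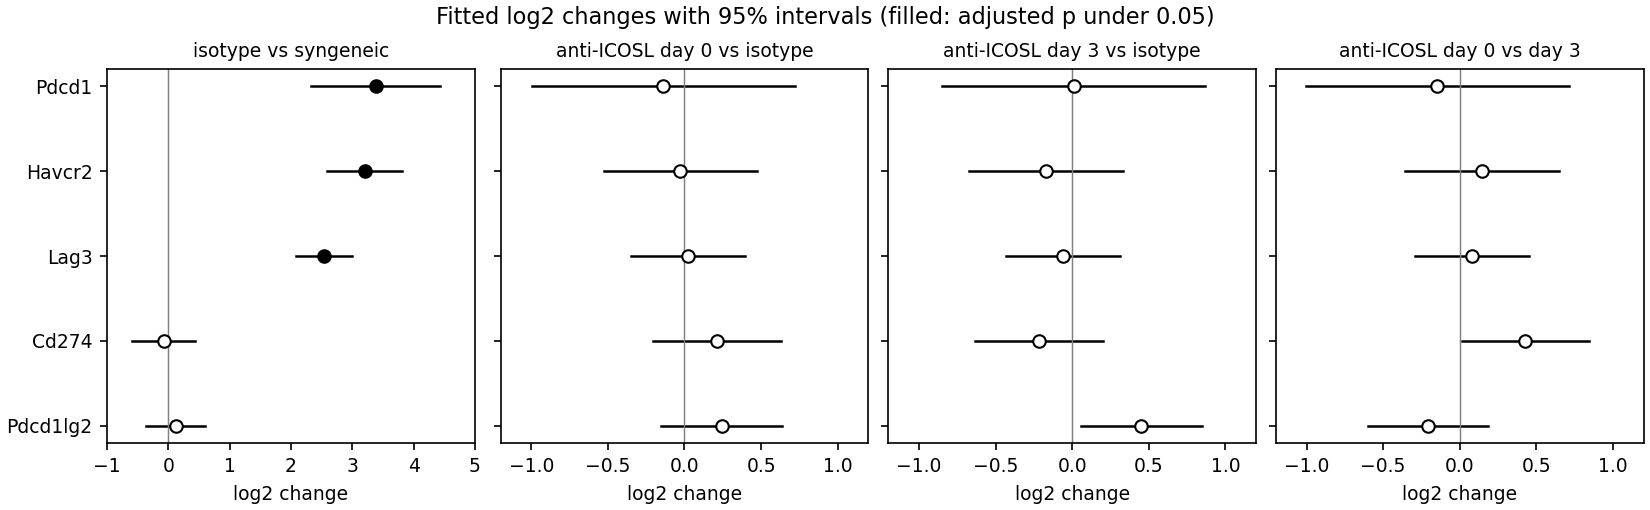
Fitted log2 change (horizontal axis) with its 95% interval for each of the 5 genes in 4 comparisons, where filled points have an adjusted p under 0.05 and the first panel has a wider axis. Pdcd1, Havcr2 and Lag3 are called in isotype against syngeneic (3.39, 3.21 and 2.53), and no gene is called in the other 3 panels.

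The markers of cell types differed between the groups as well. The summed signal of 15 T cell markers was 56671 to 62360 on the isotype arrays, against 41021 on the syngeneic array. Of these markers 4 rose (Cd4, Cd28, Thy1 and Cd247), 0 fell and the median log2 change was 0.35, against −0.01 over all tested probe sets. Cd4, the coreceptor of helper T cells, had a log2 change of 1.52 (adjusted p = 0.0118), Cd3e, a chain of the T cell receptor complex, 0.88 (adjusted p = 0.116) and Cd8a, the coreceptor of killer T cells, −0.15 (adjusted p = 0.889). The calls of Cd247 and Thy1 held in 3 and 8 of 13 alternative settings. The log2 changes of the 3 receptors (2.53 to 3.39) were all above the largest of the T cell markers, 1.75 for Cd28, a costimulatory receptor. Icos, a T cell costimulator outside this marker list, lay within the range of the 3 receptors, with a log2 change of 3.01 (adjusted p = 0.00205).

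The summed signal of 17 macrophage and monocyte markers was 11211 to 11449 on the isotype arrays, against 75127 on the syngeneic array, and 16 of the 17 fell, with a median log2 change of −2.48. Among them were Csf1r (−2.43), the receptor for a macrophage growth factor, and Vcam1 (−3.53), which encodes a cell adhesion protein. The call of Lyz2, a lysozyme, held in 11 of 13 alternative settings. Summed signals of 10 B cell markers were 18195 to 20095 on isotype arrays and 29077 on the syngeneic array, and 2 of 9 tested fell (Fcer2a and Spib). For 13 dendritic cell markers the sums were 5080 to 6069 and 6431, with 2 of 13 that fell (Ccr7 and Clec10a). Mean Clec10a signals were below the filter's level of 95.1 in both of these groups, and it was tested only through the anti-ICOSL groups. Neutrophil markers had 7 of 9 and erythroid markers 5 of 8 tested genes that fell, natural killer markers 1 of 8 and endothelial and stromal markers 0 of 3. Calls of Fcer2a, Spib, Ccr7, Elane, Mpo, Gata1 and Tal1 among these held in 12, 2, 11, 11, 2, 12 and 11 of 13 alternative settings, and that of Clec10a in 2 of 12. Cd274 and Pdcd1lg2, which macrophages and dendritic cells also express, had signals near that of the syngeneic array while the summed macrophage signal was lower. The part of these marker differences in the receptors' and ligands' signals was not tested.

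**Figure D3:**
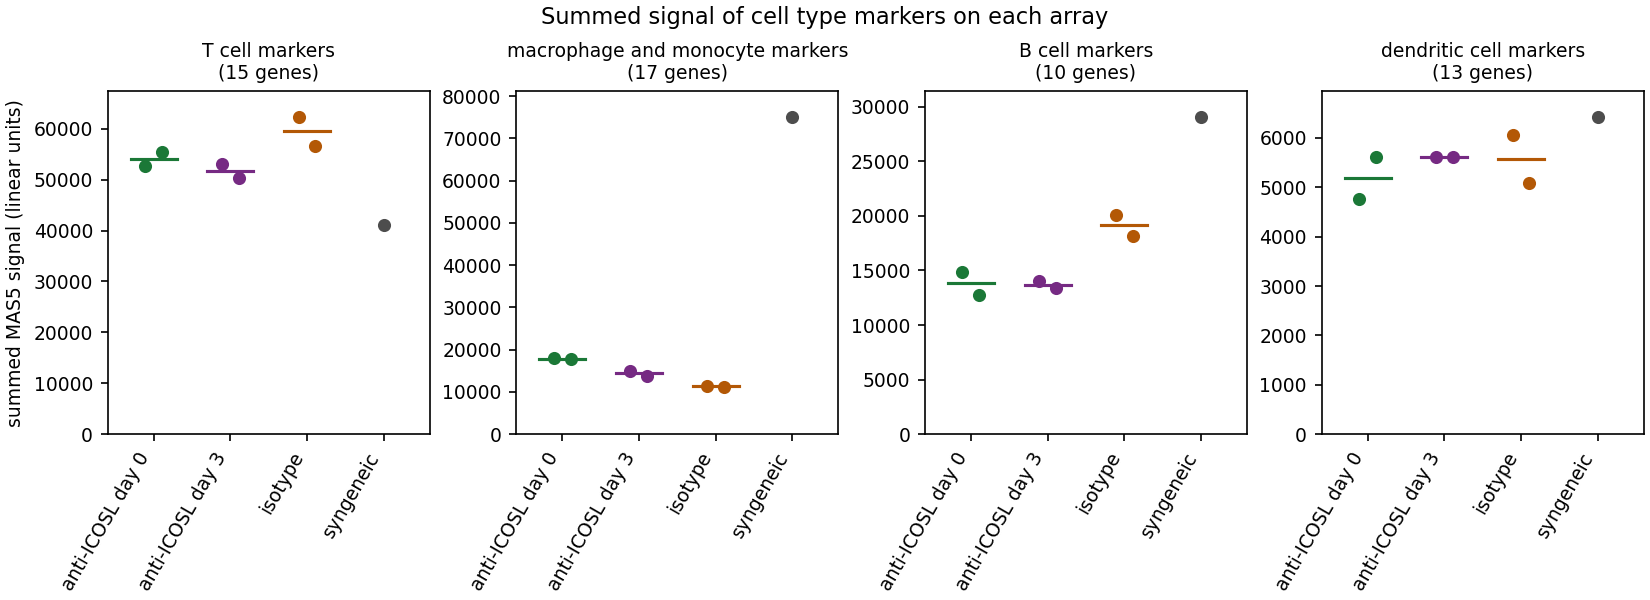
Summed MAS5 signal (linear axis from 0) of the T cell, macrophage and monocyte, B cell and dendritic cell markers on each array, with 1 point per array and a bar at the mean of 2 arrays. The T cell sum was 50225 to 62360 on the 6 allogeneic arrays against 41021 on the syngeneic array, and the macrophage sum was 11211 to 17940 against 75127.

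Ctla4 rose along with the 3 receptors. Among 10 further inhibitory receptors 1 rose and 1 fell, and the median log2 change was −0.55, against −0.01 over all tested probe sets. Ctla4, which competes with CD28 for its ligands, had signals of 1879 and 1448 on isotype arrays, against 193 on the syngeneic array (2.80 ± 0.23, limma adjusted p = 0.00287). Cd96, a receptor for CD155 on T and natural killer cells, fell by 0.97 (adjusted p = 0.0461), a call that held in 1 of 13 alternative settings (adjusted p up to 0.119). The other 8, among them Cd160, Cd244a, Klrg1 and Lair1, had log2 changes between −0.70 and 0.08 and none was called.

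The ligands of inhibitory receptors went in different directions. Of 12 tested genes 1 rose and 2 fell, with a median of 0.13. Lgals3, which encodes galectin 3, a sugar-binding lectin reported as a ligand of LAG-3, rose with signals of 7393 and 7520 on isotype arrays and 1566 on the syngeneic array (2.22, adjusted p = 0.00329). H2-Ab1, the beta chain of an MHC class II molecule and so part of the main LAG-3 ligand, fell by 2.33 (adjusted p = 0.0121), to 906 ± 254 on isotype arrays (SD, n = 2), against 4663. H2-Aa, the alpha chain, had 7211 and 6074 on isotype arrays, against 11726 (−0.82, adjusted p = 0.0773). The donors and the recipients carry different MHC alleles, and their part in these probe signals cannot be told apart from expression. Lgals9, which encodes the TIM-3 ligand galectin 9, had 5182 ± 264 on isotype arrays against 4030 (0.36, adjusted p = 0.329). Cd86, a ligand of CD28 and CTLA-4, fell to 292 ± 94 on isotype arrays, against 1041 on the syngeneic array (−1.70, adjusted p = 0.0274, a call that held in 8 of 13 alternative settings). Cd80, its partner ligand that also binds PD-L1, had 118 ± 1.4 on isotype arrays against 58.1 (0.64, adjusted p = 0.155).

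Of 10 tested signalling partners Zap70, the kinase next to the T cell receptor, rose (1.09, adjusted p = 0.0411, held in 3 of 13 alternative settings) and 0 fell. Ptpn11, which encodes SHP-2, had 1577 ± 185 on isotype arrays against 1249 (0.32, adjusted p = 0.406), and Ptpn6, which encodes the related phosphatase SHP-1, had 2967 ± 226 against 3245 (−0.13, adjusted p = 0.745). In the interferon gamma to PD-L1 pathway 2 of 11 tested genes rose and 0 fell. Ifng had signals of 2262 and 2607 on isotype arrays, against 132 on the syngeneic array (3.77 ± 0.20, limma adjusted p = 0.00134). Socs1, a feedback inhibitor of the pathway, rose by 1.01 on the log2 scale (adjusted p = 0.0478, held in 3 of 13 alternative settings). Irf1, the factor through which interferon gamma induces PD-L1, had 3788 and 3126 on isotype arrays against 2975 (0.21, adjusted p = 0.628), and Cd274 itself was not called, as given above.

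Among 16 tested transcription factors that have been tied to these receptors, 4 rose and 1 fell. Batf, an AP-1 family factor of effector and exhausted T cells, rose with signals of 2663 and 2392 on isotype arrays, against 642 on the syngeneic array (1.89, adjusted p = 0.00873). Prdm1 (1.42), which encodes Blimp-1, Tbx21 (1.38), which encodes T-bet, and Irf4 (1.07) rose too, and their calls held in 11, 7 and 2 of 13 alternative settings. Fos, an AP-1 subunit of immediate early responses, fell by 2.90 (adjusted p = 0.00231), to 305 and 284 on isotype arrays, against 2515. Tox (0.87, adjusted p = 0.0588) and Nfatc1 (1.05, adjusted p = 0.0543), the factors most often linked to sustained PD-1 expression, and Eomes (−0.73, adjusted p = 0.315) were not called. Over the 3 allogeneic groups against syngeneic, Nfatc1 was just under the threshold (0.88, adjusted p = 0.0499). Tox (0.62, adjusted p = 0.0844) and Eomes (−0.38, adjusted p = 0.516) were not called there either.

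**Figure D4:**
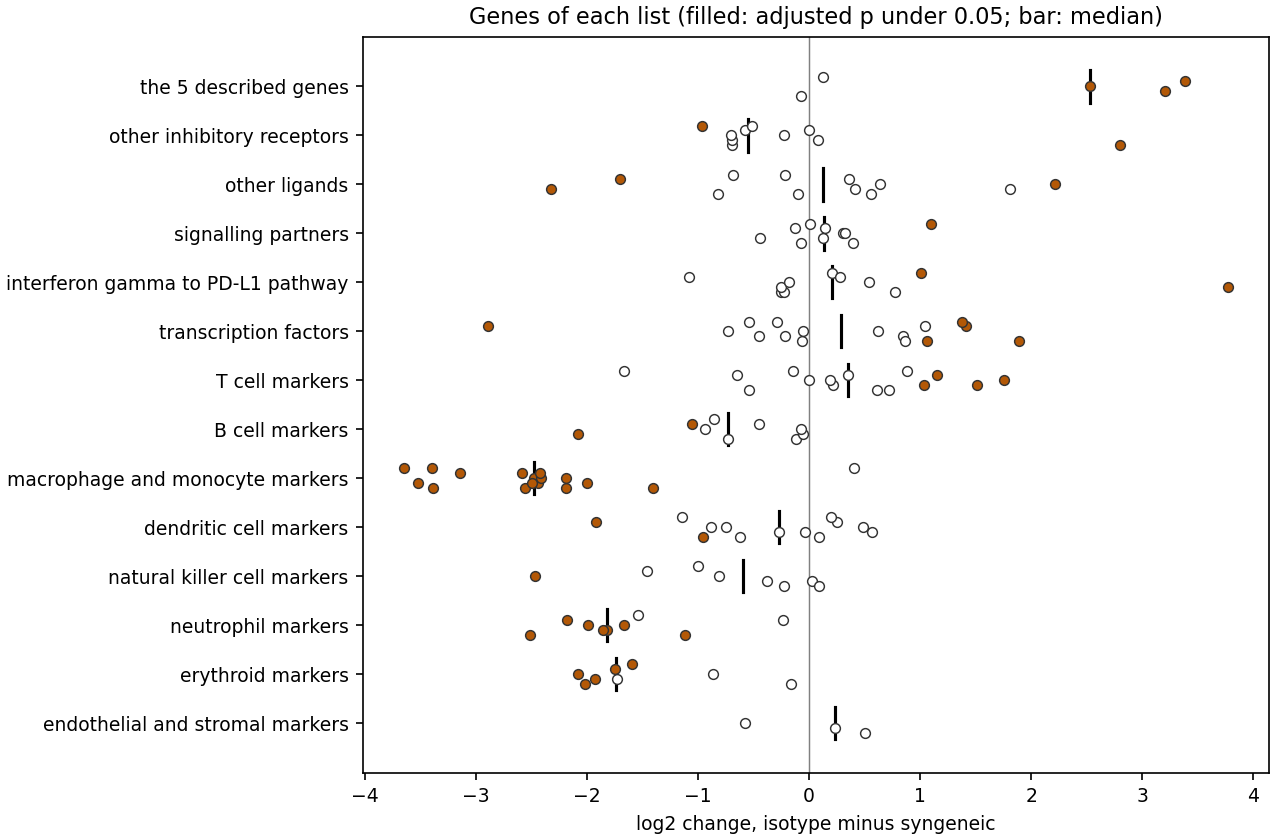
Log2 change of isotype minus syngeneic (horizontal axis) for each tested gene of the gene lists (rows), with 1 point per gene, filled where the adjusted p is under 0.05, and a bar at each list's median. Pdcd1, Havcr2 and Lag3 lie at 2.53 to 3.39 in the top row, Ctla4 (2.80) is the called high point among other inhibitory receptors, and 16 of 17 macrophage and monocyte markers are called on the low side.

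Over the 3 allogeneic groups as a whole, the same 3 receptors were called. This comparison holds the isotype arrays and the syngeneic array of the one above, so it is not separate support. Over the 6 allogeneic arrays Pdcd1 ranged from 720.1 to 1380 around a mean of 1085 (SD 279.9), Havcr2 from 769 to 1099 around 900.2 (SD 122) and Lag3 from 1204 to 1332 around 1287 (SD 45.4). All 6 arrays lay above the syngeneic array for each of the 3, beside 26% of all tested probe sets that did so, and 52.4% without overlap in either direction. The log2 changes were 3.34 ± 0.38 for Pdcd1, 3.14 ± 0.22 for Havcr2 and 2.52 ± 0.17 for Lag3 (limma adjusted p = 0.00546, 0.0017 and 0.00147), beside 3.98% of probe sets called higher, 5.74% called lower and 9.71% called in all. Those shares rest on 1505 calls, a count that was 910 to 983 when a day 0 or day 3 array was left out and 837 without the filter, and Pdcd1 and Havcr2 were again tested only because of their allogeneic signals. Cd274 ranged from 611 to 900.3 and overlapped the syngeneic 779.9 (−0.08, adjusted p = 0.831). Pdcd1lg2 ranged from 215 to 340.4, all above the syngeneic 212, but was not called (0.35, 95% interval −0.07 to 0.78, adjusted p = 0.263).

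Treatment with anti-ICOSL antibody was compared with isotype for each start day. Limma called none of the 5 genes with antibody from day 0, from day 3 or with both schedules together, and 0% of tested probe sets were called in each of these comparisons. At an unadjusted p under 0.05 there were 1125 probe sets for day 0, 1601 for day 3 and 1466 for both schedules. Both start days are set against the same isotype arrays, so their values are given side by side and are not independent.

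Pdcd1 had signals of 720.1 and 1341 on day 0 arrays and 868 and 1380 on day 3 arrays, against 929 and 1272 on isotype arrays. The 3 groups overlapped fully. The log2 change was −0.14 (95% interval −0.995 to 0.72, adjusted p = 0.954) for day 0 and 0.01 (−0.85 to 0.87, adjusted p = 0.996) for day 3, so the intervals hold fitted folds from 0.50 to 1.65 for day 0 and from 0.56 to 1.83 for day 3.

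Havcr2 had signals of 1099 and 769 on day 0 arrays and 842 and 814 on day 3 arrays, against 980.2 and 898 on isotype arrays. The day 0 arrays lay on both sides of the isotype arrays, and both day 3 arrays lay below them. Log2 changes were −0.03 (95% interval −0.53 to 0.47, adjusted p = 0.985) for day 0 and −0.17 (−0.67 to 0.33, adjusted p = 0.805) for day 3.

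Lag3 had signals of 1332 and 1304 on day 0 arrays and 1284 and 1204 on day 3 arrays, against 1320 and 1277 on isotype arrays. All 6 values fell in a narrow band and the groups overlapped. They amounted to log2 changes of 0.02 (95% interval −0.35 to 0.39, adjusted p = 0.985) for day 0 and −0.06 (−0.43 to 0.31, adjusted p = 0.914) for day 3.

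Cd274 had signals of 824 and 900.3 on day 0 arrays and 645 and 611 on day 3 arrays, against 812 and 669 on isotype arrays. Both day 0 arrays were above and both day 3 arrays below the isotype arrays, but the nearest pairs of arrays were close (824 against 812, and 645 against 669). The log2 change was 0.21 (95% interval −0.21 to 0.63, adjusted p = 0.85) for day 0 and −0.22 (−0.63 to 0.20, adjusted p = 0.696) for day 3. Over the 14 alternative settings they kept their signs but ranged from 0.08 to 0.34 for day 0 and from −0.35 to −0.09 for day 3, with no call.

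Pdcd1lg2 had signals of 284 and 292 on day 0 arrays and 340.4 and 340.0 on day 3 arrays, against 215 and 258 on isotype arrays. Arrays of both antibody groups lay above both isotype arrays. The log2 change was 0.24 (95% interval −0.15 to 0.64, adjusted p = 0.81) for day 0 and 0.45 ± 0.16 (0.06 to 0.85) for day 3, where the unadjusted limma p was 0.0308 and the adjusted p 0.447. With both schedules together it was 0.35 (0.01 to 0.69, unadjusted p = 0.0472, adjusted p = 0.523), and the 4 antibody arrays stood above the isotype arrays, as did 10.3% of all tested probe sets (7.93% stood below).

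For day 0 the arrays did not overlap those of isotype for 2 of the 5 genes (Cd274 and Pdcd1lg2, both higher), beside 35.6% of tested probe sets. For day 3 they did not overlap for 3 of the 5 (Pdcd1lg2 higher, Cd274 and Havcr2 lower), beside 43.2%. With both schedules together Pdcd1lg2 alone of the 5 did not overlap, beside 18.2%. Pdcd1, Lag3 and, over both schedules, Cd274 had log2 changes of −0.06, −0.02 and −0.002 against isotype.

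In these comparisons no gene of the receptor, ligand, signalling, interferon and transcription factor lists was called. Their medians against isotype lay between −0.09 and 0.16 for day 0 and between −0.13 and 0.08 for day 3, against 0.02 and 0.03 over all tested probe sets. Ctla4 had 1687 ± 96 on day 0 arrays and 1625 ± 123 on day 3 arrays, against 1664 ± 305 on isotype arrays (0.03 and −0.02; adjusted p = 0.982 and 0.978). Icos, the receptor for the blocked ligand, had 4499 ± 28 on day 0 arrays and 3598 ± 205 on day 3 arrays, against 4213 ± 240 (0.10 and −0.23; adjusted p = 0.932 and 0.657). Icosl had 429.5 ± 21 and 379 ± 53, against 444 ± 79 (adjusted p = 0.98 and 0.752). Macrophage and monocyte markers summed to 17688 to 17940 on day 0 arrays and 13756 to 15030 on day 3 arrays, against 11211 to 11449 on isotype arrays, and 16 and 13 of 17 had a positive log2 change, with 0 called. B cell markers summed to 12761 to 14871 and 13356 to 14060, against 18195 to 20095, and T cell markers to 52741 to 55498 and 50225 to 53001, against 56671 to 62360. Sums for dendritic cell markers were 4764 to 5610 and 5604 to 5610, against 5080 to 6069, with median log2 changes of 0.06 for day 0 and 0.25 for day 3, where 8 and 9 of 13 were positive and 0 were called. Of the 13, the arrays of 4 stood above isotype without overlap on day 3 and those of 3 below, beside 43.2% of tested probe sets in either direction. The 3 below were Ccr7 (−0.78, adjusted p = 0.427), Xcr1 (−0.55, adjusted p = 0.471) and Irf8 (−0.18, adjusted p = 0.733). On day 0 it was 2 above and 1 below, beside 35.6%. The dim markers named next were picked from those above isotype on day 3. Clec10a, a lectin of dendritic cells and macrophages, had 164 and 167 on day 0 arrays and 104 and 99.2 on day 3 arrays, against 16.3 and 16.6 on isotype arrays. Its log2 changes were 1.70 (adjusted p = 0.0858) and 1.19 (adjusted p = 0.179), and the day 0 value had the smallest adjusted p of that comparison. In the syngeneic and isotype groups its mean signal was below the filter's level of 95.1. Clec10a was thus tested only through the antibody groups in which it was high, and nothing is read from that rank. On day 3 arrays Zbtb46, a factor of conventional dendritic cells, had a log2 change of 1.19 (adjusted p = 0.466) and Cd209a, a lectin of dendritic cells, 0.77 (adjusted p = 0.483). On day 0 arrays their log2 changes were 0.63 and 0.58 (adjusted p = 0.829 and 0.779), and both overlapped isotype. The mean Zbtb46 signal was below 95.1 in every group but day 3, so Zbtb46 was tested only through that group. Mean Cd209a signals were below that level in all 3 allogeneic groups, and those of Xcr1 in the isotype and day 3 groups. PD-L2 is carried by macrophages and dendritic cells, and the part of these markers in the Pdcd1lg2 values was not tested.

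The arrays of antibody from day 0 and from day 3 were also set against each other. Limma called none of the 5 genes, and 0% of tested probe sets (1058 at an unadjusted p under 0.05). Cd274 differed most, with 824 and 900.3 on day 0 arrays, against 645 and 611 on day 3 arrays. The lower day 0 array was above the higher day 3 array by more than either group's own gap, and the log2 change was 0.43 ± 0.17 (95% interval 0.01 to 0.85, limma adjusted p = 0.725). It stayed between 0.37 and 0.49 in all 14 alternative settings. Cell type markers differed between the same arrays. All 8 tested erythroid markers had a negative log2 change (median −0.67) with no overlap of arrays, beside 20.5% of all tested probe sets that lay lower without overlap. Alas2 of haem synthesis was among them (−1.30, adjusted p = 0.356). The list's signals summed to 4972 to 5230 on day 0 arrays, against 7644 to 7948 on day 3 arrays. Of the 17 macrophage and monocyte markers 13 had a positive log2 change (median 0.23), such as Lyz2 (1.02, adjusted p = 0.43), C1qb, a complement chain (0.61, adjusted p = 0.605), and Ccr2, a monocyte chemokine receptor (0.57, adjusted p = 0.624). None of these markers was called, and their part in the Cd274 values was not tested. Pdcd1lg2 went the other way, with 284 and 292 on day 0 arrays, against 340.4 and 340.0 on day 3 arrays (−0.21, 95% interval −0.60 to 0.19, adjusted p = 0.852). Lag3 arrays did not overlap either (0.08, adjusted p = 0.941), whereas Pdcd1 (−0.15, adjusted p = 0.954) and Havcr2 (0.14, adjusted p = 0.92) overlapped. Arrays without overlap in 3 of 5 genes stand beside 39.1% of tested probe sets. Ifng had 2586 and 2606 on day 0 arrays, against 1665 and 1698 on day 3 arrays (0.61 ± 0.16, adjusted p = 0.605). Thus the signals of Ifng and Cd274 were both higher with the early start, neither was called, and a link between them was not tested.

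Over the 4 groups each receptor had the same lowest group, syngeneic, and no pair of allogeneic groups that was tested differed past the threshold. By mean signal the order for Pdcd1 was day 3 (1124 ± 362), isotype (1100.4 ± 243) and day 0 (1030.4 ± 439; SD, n = 2 each). For Havcr2 the order was isotype (939 ± 58), day 0 (934 ± 234) and day 3 (828 ± 20), and for Lag3 it was day 0 (1318 ± 20), isotype (1299 ± 30) and day 3 (1244 ± 56). Cd274 was highest on day 0 arrays (862 ± 54), followed by the syngeneic array (779.9), isotype (740.4 ± 102) and day 3 (628 ± 24). For Pdcd1lg2 the order was day 3 (340.2 ± 0.2), day 0 (288 ± 5.2), isotype (236 ± 30) and syngeneic (212). In these orders the arrays of neighbouring allogeneic groups overlapped for each of the 3 receptors, and the syngeneic array lay among the isotype arrays for Cd274. For Pdcd1lg2 no neighbouring groups overlapped, but none of its differences that were tested passed the threshold.

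The 5 genes differed in how well the arrays of a group agreed. Pdcd1 was the least steady: 1 array was above the other by 1.86-fold in the day 0 group, 1.59-fold in the day 3 group and 1.37-fold in the isotype group. Its residual SD of 0.47 on the log2 scale was larger than that of 90% of tested probe sets, whose median was 0.21. Lag3 was the steadiest, with a residual SD of 0.04 that was larger than that of 1.4% of probe sets. Between them lay Havcr2 (0.21), Cd274 (0.12) and Pdcd1lg2 (0.09). For Havcr2 the spread came from the day 0 group, where 1 array was 1.43-fold above the other, against 1.03-fold on day 3 and 1.09-fold in isotype. At least 2-fold apart between the arrays of a group were 492 tested probe sets for day 0, 479 for day 3 and 661 for isotype.

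Among the 6 allogeneic arrays the receptors did not run in parallel. As a description over 6 arrays that share their groups and scaling, the Pearson correlation of log2 signals was −0.79 between Pdcd1 and Havcr2, −0.66 between Pdcd1 and Lag3 and 0.58 between Havcr2 and Lag3. In every allogeneic group, sample 2 had the higher Pdcd1 signal and the lower Havcr2 and Lag3 signals. These correlations thus run along the sample number. The labels do not say whether that number stands for a batch. Over the brighter probe sets, differences between sample 1 and sample 2 had correlations of −0.03, 0.09 and 0.03 between the allogeneic groups. The cause of the shared direction in the 3 receptors was not tested. The 2 PD-1 ligands had a correlation of −0.51. Cd274 and Lag3 had 0.79, over a Lag3 range of only 1204 to 1332. In Pdcd1 and Havcr2 the widest gap within a group was between the same 2 arrays, those of day 0, where the array with the higher Pdcd1 signal (1341 against 720.1) had the lower Havcr2 signal (769 against 1099).

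The genes whose pattern over all 7 arrays was most like each of the 5 were found by Pearson correlation of log2(signal + 50) over all tested probe sets with 1 symbol. For receptors this measure rests mainly on the 1 syngeneic array that stands apart. Lag3 was nearest to H2-D1, an MHC class I heavy chain (r = 0.999), to Gzmk, a granzyme of T cells (0.999), and to Lgals1, which encodes galectin 1 (0.999). H2-D1 had 3345 and 3548 on day 0 arrays, 3242 and 3260.0 on day 3 arrays and 3460.1 and 3456 on isotype arrays, against 38.7 on the syngeneic array, and it belongs to the MHC alleles in which the strains differ. Havcr2 was nearest to Glo1, a glyoxalase (0.997), Shcbp1 (0.997) and again Lgals1 (0.995), and Pdcd1 to Abhd2 (0.994), Ncald (0.993) and Psmd13, a proteasome subunit (0.990). Cd274 was nearest to Rbms1 (0.964), Taok3 (0.962) and Plrg1 (0.956), and Pdcd1lg2 to Prodh (0.986), Gsk3a (0.982) and Scara5 (0.981). Over the 6 allogeneic arrays alone the nearest genes were others: Hdhd5, Zpr1 and Kif3a for Pdcd1, Fli1, Mtx2 and Bmi1 for Havcr2, Foxj2, Dmtf1 and Hdlbp for Lag3, Sec61a1, Fam110a and Cd99 for Cd274, and Triap1, Htr1a and Sppl3 for Pdcd1lg2, with correlations between 0.981 and 0.996. Like Pdcd1, its nearest genes Hdhd5, Zpr1 and Kif3a were higher on sample 2 in every allogeneic group.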

How the data were processed

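Total RNA of spleen cells was hybridised to 7 Affymetrix arrays, 10 µg per array. The values deposited by the authors are linear MAS5 signal intensities, 1 per probe set; MAS5 is named, with no version, per the submitters' processing notes. Detection calls were not used here. Of 22690 probe sets 64 manufacturer controls were left out. Platform symbols named the genes (20380 probe sets with 1 symbol, 691 with several, 1555 with none), and 20364 gene IDs matched the RefSeq table with 0 symbols updated.

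From the deposited intensities log2(signal + 50) was computed, which understates folds of dim genes. A probe set was tested if a group mean of log2 values reached the 40th percentile of all group means. The limma 3.58.1 fit in R 4.3.3 (lmFit, eBayes) held 4 group means over 7 arrays, with 3 residual and 3.38 prior degrees of freedom; tests were two-sided. The syngeneic group, with 1 array, took its spread from the other groups. The number of arrays limits the precision. The procedure was run on simulated data with changes added to brighter probe sets. That check asked only that the mean size of the added changes be recovered, and it set no limit on false calls. The main fit did not pair arrays by sample number. Over the brighter probe sets, the differences between sample 1 and sample 2 had correlations of −0.03, 0.09 and 0.03 between the allogeneic groups. These correlations do not bear on single genes. Pdcd1 was higher on sample 2 in every allogeneic group, and Havcr2 and Lag3 were higher on sample 1.

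The 5 genes and all lists (other inhibitory receptors, their ligands, signalling partners, the interferon gamma to PD-L1 pathway, transcription factors and 8 cell type marker lists) were chosen with earlier results of these data known. List genes had 1 probe set each, the brightest. Named were the 5 genes, context genes (Ifng, Ctla4, Icos, Icosl, Cd80, Cd86, Lgals9, H2-Ab1, Ptpn6, Ptpn11, Cd3e, Cd4, Cd8a), up to 4 called genes of each pathway list by size of change, and the 3 genes most correlated with each of the 5. Others (Irf4, Cd160, Cd244a, Klrg1, Lair1, H2-Aa, Irf1, Tox, Nfatc1, Eomes, Cd28, Thy1, Cd247, Csf1r, Vcam1, Fcer2a, Spib, Ccr7, Clec10a, Lyz2, Elane, Mpo, Gata1, Tal1, Zbtb46, Cd209a, Xcr1, Irf8, Alas2, C1qb, Ccr2) were chosen after their values were seen. Alternatives were pseudocounts of 16 and 100, no filter, quantile normalization, median centring, a replicate block, a separate fit of each pair of groups and leaving out each array.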

Additional observations from a re-analysis of the deposited data

Results flagged for a closer look

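Cd274, which encodes PD-L1, stood on opposite sides of isotype under the 2 start days of the anti-ICOSL antibody. Its signals were 824 and 900.3 with antibody from day 0 and 645 and 611 with antibody from day 3, against 812 and 669 with isotype. Each day 0 array was thus above both isotype arrays, as for 19.4% of tested probe sets, and each day 3 array below both, as for 18.9%. The nearest pairs of arrays were close (824 against 812, and 645 against 669). The difference between the start days was tested as a contrast of the same limma fit: the log2 change of day 0 minus day 3 was 0.428 (95% interval 0.01 to 0.85), with an adjusted p of 0.725 (0.583 to 1 over the 14 alternative settings), so it did not pass the correction over 15494 probe sets. Against isotype the log2 change ranged over those settings from 0.08 to 0.34 for day 0 and from −0.35 to −0.09 for day 3. Groups of 2 arrays are too small for a test of single outlying arrays.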

How the results depend on the processing

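Of 405 values of the 5 genes under alternative settings, 381 kept their direction and their side of the threshold, 1 lost its call and 23 changed sign. The lost call was that of Pdcd1 in isotype against syngeneic without the second isotype array (3.168, adjusted p = 0.0518); its range with single arrays left out was 3.168 to 3.601. Havcr2 and Lag3 were called in all 13 alternatives of that comparison (adjusted p up to 0.0209 and 0.0184). No value that changed sign had been called. With each array centred on its median, Cd274 was 0.013 in isotype against syngeneic, Lag3 −0.026 in day 0 against isotype and Pdcd1 −0.09 in day 3 against isotype; this centring moved the median of all tested probe sets to 0.082, against −0.011 as deposited, in isotype against syngeneic, and to −0.071, against 0.032, in day 3 against isotype. With single arrays left out, Cd274 ranged from −0.208 to 0.055 in isotype against syngeneic. In day 0 against isotype the ranges were −0.563 to 0.29 for Pdcd1, −0.272 to 0.217 for Havcr2 and −0.002 to 0.043 for Lag3, and Pdcd1 ranged from −0.309 to 0.33 in day 3 against isotype. For both schedules against isotype they were −0.28 to 0.154 for Pdcd1, −0.134 to 0.129 for Cd274, −0.221 to 0.023 for Havcr2 and −0.043 to 0.003 for Lag3. In day 0 against day 3 Pdcd1 ranged from −0.573 to 0.28 and Havcr2 from −0.101 to 0.389. Pdcd1lg2 in day 3 against isotype stayed between 0.343 and 0.56 (adjusted p 0.421 to 0.853). The count of called probe sets in isotype against syngeneic, 1028, was 542 with no filter on dim probe sets, 603 in a fit to the compared groups alone and 406 to 679 with single arrays left out (406 without the second and 490 without the first isotype array, 668 and 671 without a day 0 array, 665 and 679 without a day 3 array). For the 3 allogeneic groups against syngeneic, 1505 became 837 with no filter and 910 to 1230 with single arrays left out (923 and 910 without a day 0 array, 983 and 914 without a day 3 array). With a pseudocount of 100 the counts were 4 for day 0 against isotype, 2 for day 3, 1 for both schedules and 6 for day 0 against day 3, where the count was otherwise 0 in all settings run. The cause of these shifts was not tested. The fit without the filter held more probe sets, and the fits to the compared groups or without an array held fewer arrays. With the sample number as a replicate block the count was 811 in isotype against syngeneic and 1271 for the 3 allogeneic groups against syngeneic, and no call of the 5 genes was changed by the block. The comparisons with the syngeneic array could not be run without that array. Day 4 spleens with 1 or 2 arrays per group and pooled RNA limit all values, and Pdcd1 and Havcr2 had a dim syngeneic signal, so their folds depend on the added constant (3.88 and 3.706 with 16, 2.902 and 2.724 with 100, as log2 changes).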
